A study of Mus musculus with 8 samples.

Results

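The genes that encode the mitochondrial respiratory chain and ATP synthase were followed in mouse macrophage-like cells on a smooth and on a structured polymer. Members were taken by name, as the genes for structural subunits of complexes I to V in the nuclear and in the mitochondrial genome, together with the 2 cytochrome c genes Cyc1 and Cycs. This gave 100 of the 26848 genes measured, of which 87 are nuclear and 13 mitochondrial. By complex there were 45 in complex I, 4 in complex II, 10 in complex III, 21 in complex IV and 19 in complex V, and Cycs stands alone as the soluble carrier. A further 12 names that end as pseudogenes ("-ps") were left out by the same rule. Ndufa4 and Ndufa4l2, whose names point to complex I, were placed with complex IV, where the protein is now assigned.

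The respiratory chain passes electrons from NADH and succinate through complexes I to IV to oxygen, and pumps protons across the inner mitochondrial membrane. Complex V, the ATP synthase, lets the protons back and makes ATP. The mitochondrial DNA encodes a small core of subunits of complexes I, III, IV and V, and the nucleus encodes the rest, complex II included. Macrophages are known to lower or raise their use of the chain as they change state, and complex II is known in these cells for its part in inflammatory signalling.

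The cells were RAW264.7, an established mouse line with macrophage properties that was made with a leukaemia virus. They were grown on polyetheretherketone (PEEK), an implant polymer, whose surface was either smooth or carried nanometre and micrometre structures. There were 4 libraries per surface, called smooth 1 to 4 and structured 1 to 4. No agent, genetic change or time in culture is named in the labels used here. The comparison asks which transcripts differ between the surfaces.

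Total counts per library were 64479829 to 73098735. All 10 of the macrophage markers examined were present in every library and none passed the test, with a summed level of 6124 to 6555 CPM (counts scaled to library size) on smooth and 6467 to 6615 CPM on structured PEEK. Transcripts of other cell types were present too. Summed CPM of 19 skeletal muscle transcripts was 82.9, 40.1, 32.5 and 53.8 in smooth 1 to 4 and 37.0, 26.9, 25.7 and 26.8 in structured 1 to 4. Of these, 17 were tested, 3 passed as lower (Tnnc2, Ckm and Atp2a1), and none was at 0 in a whole group. The median log2 fold change of those tested was -2.65. Acta1 did not pass, but had 1.27 to 6.58 CPM on smooth and 0 to 0.82 on structured PEEK, without overlap. Tnni2, at 9.72 to 15.74 and 12.91 to 14.63 CPM, and Ryr1, at 6.54 to 7.41 and 7.06 to 9.17 CPM, were not lower. They made up a large part of the structured sums. Summed CPM of 20 hepatocyte transcripts ranged from 86.1 to 423 on smooth and from 181 to 585 on structured PEEK, with 0 called and none at 0 in any library. Summed CPM of 15 measured neutrophil transcripts was 59.4 to 69.9 on smooth and 71.3 to 136 on structured PEEK. Of those, 8 were tested and 6 passed as higher. Mmp9 and Csf3r were tested and did not pass. Mmp9 alone had 53.29 to 63.99 CPM on smooth and 48.95 to 54.08 CPM on structured PEEK, a large part of each sum. Mmp8, Mpo, Elane, Retnlg, Cxcr2, Ngp and Ltf were at 0 in all smooth libraries. Of these, Mmp8 and Ngp reached the test through the structured libraries alone. Mpo and Elane were at most 0.043 and 0.059 CPM on structured PEEK. The part of these transcripts in the results below was not tested. In bulk RNA, fewer cells of a type and less RNA per cell cannot be told apart. The labels speak of biological replicates without naming separate cultures or days, so p-values measure only the spread between these libraries, which may be technical.

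In the whole table, 16006 genes were tested, and 601 of them passed edgeR's quasi-likelihood test at a Benjamini-Hochberg (BH) adjusted p of 0.05, or 3.75%. Of these, 161 were higher on structured PEEK (1.01%) and 440 were lower (2.75%). Lower calls were thus 73.2% of calls, but 61.4% with DESeq2, 63.2% to 65.2% with limma on log2 FPKM, 58.5% with the trend on GC content and length removed and 51.9% without smooth 1 and smooth 4 together.

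Of the 100 members, 96 passed the filter on low counts. Only 2 of these 96, or 2.08%, passed the test: Sdhd of complex II was higher and Uqcrc1 of complex III was lower. That share is below the 3.75% of all genes tested. At an unadjusted p under 0.05 there were 11 members (11.5%), against 18.7% of all genes tested. The groups did not overlap in CPM for 5 members (5.21%), against 12.2% of all genes tested. These were Sdhd, Ndufs1 and Atp5l, with every structured library above every smooth one, and Uqcrc1 and Ndufa8, with every structured library below. Changes of members were small: the median size of a log2 fold change was 0.070, against 0.118 over all genes tested. The median SE was smaller too, 0.0631 against 0.0945, and its part in the smaller changes was not tested. Across the 8 libraries, the highest was under 1.2 times the lowest for 31 members and under 1.5 times for 86. These ratios were not taken over all genes tested.

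**Figure D1:**
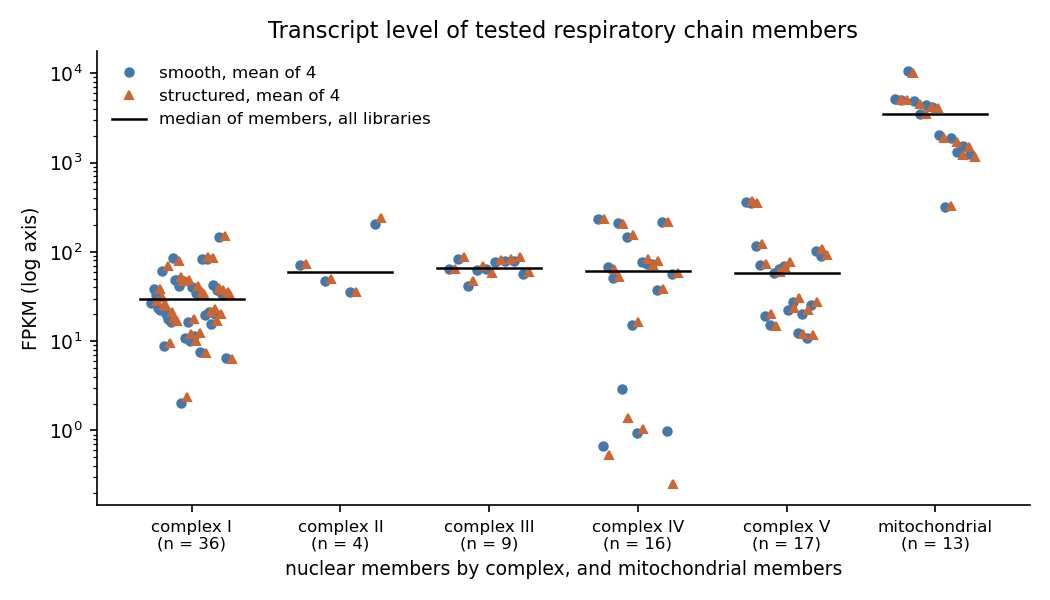
Mean FPKM of each tested member on smooth (circles) and structured (triangles) PEEK on a log axis, for nuclear members by complex and for the 13 mitochondrially encoded members, with the median of each set as a line. Paired symbols sit close together, and the mitochondrial members lie above all nuclear ones except that mt-Nd3, at a mean of 322 FPKM, falls below Atp5a1 and Atp5b.

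Transcript levels per length (FPKM, fragments scaled by gene length and library depth) set the members apart far more than the surface did. Among nuclear members with a mean of at least 5 FPKM, the median level was 31.9 FPKM in complex I, 60.2 in complex II, 65.8 in complex III, 74.1 in complex IV and 58.6 in complex V. The highest member stood 1.93-fold above the lowest in complex III, where Uqcr10 led with 85.1 FPKM. In complex V the spread was 32.1-fold, from Atp5md at 11.4 FPKM to Atp5a1, which encodes the alpha subunit of the ATP synthase head, at 366 FPKM. Complex I spanned 23.3-fold from Ndufv3 to Ndufs8, and complex IV 14.8-fold from Cox6c to Cox4i1. These are levels of transcripts and not of subunits. They also rest on the annotated gene length. Atp5l and Cox8a had similar mean CPM on smooth PEEK, 138 and 143, but exon lengths of 6443 and 619 bases in GENCODE M21. Their mean levels over all libraries were 21.3 and 217 FPKM. The part of annotated length in the spreads above was not tested.

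**Figure D2:**
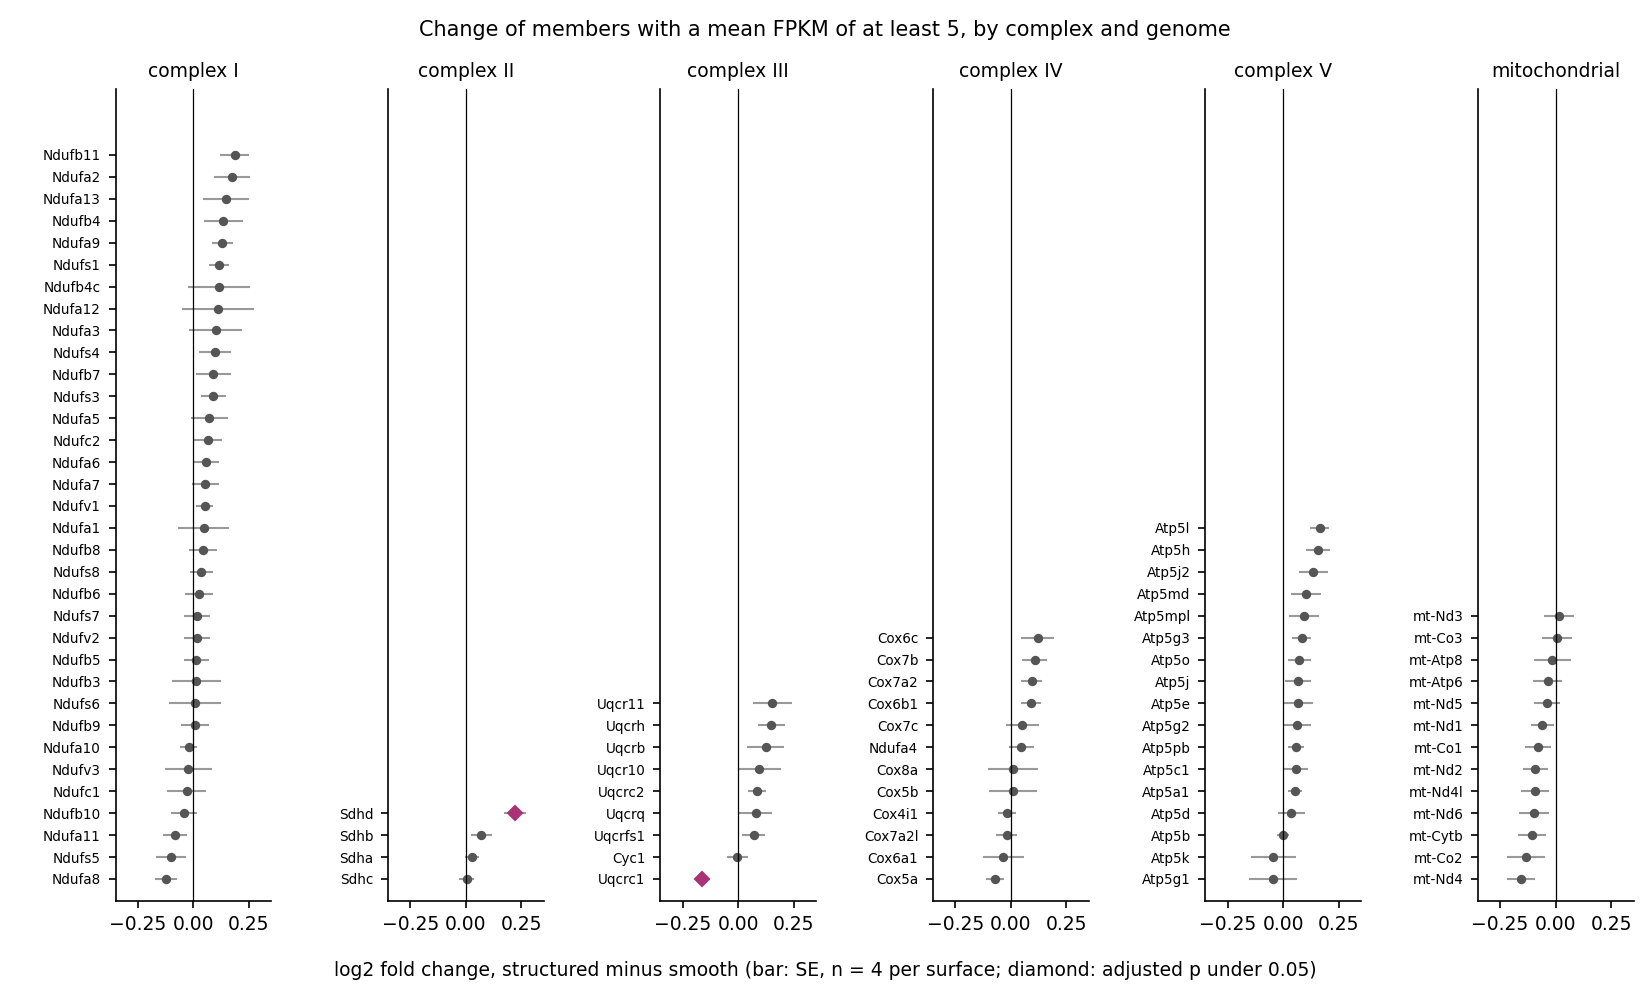
Log2 fold change, structured minus smooth, of the reported members with a mean FPKM of at least 5, by complex for nuclear members and in the last panel for mitochondrially encoded ones. Bars are the SE (n = 4 per surface) and diamonds mark the 2 members past the test, Sdhd at 0.22 and Uqcrc1 at -0.16.

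Complex I, the NADH dehydrogenase, had 38 nuclear members, 36 of them tested. None passed the test, 4 had an unadjusted p under 0.05, 29 of the 36 log2 fold changes were above 0 and their median was 0.048. Without smooth 3 the median was 0.0068 with 20 above 0, without structured 2 it was 0.027 with 26, and without smooth 1 it was 0.075 with 28. With the trend on GC content and length removed it was 0.025 with 23 above 0, and without smooth 1 and smooth 4 together it was 0.083. Ndufb11, a subunit of the membrane arm, had the highest change among members above 5 FPKM. Its CPM was 39.6, 44.2, 35.9 and 41.0 in smooth 1 to 4 and 46.6, 48.4, 44.3 and 43.5 in structured 1 to 4. Smooth 2 lay above structured 4, so the groups overlapped slightly, and the log2 fold change was 0.19 ± 0.065 (SE; edgeR BH-adjusted p = 0.138).

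Ndufs1, the largest subunit of the complex and a carrier of iron-sulfur clusters, had CPM of 157, 175, 172 and 173 on smooth and 178, 190, 176 and 189 on structured PEEK. All structured libraries were above all smooth ones, by a narrow margin from smooth 2 to structured 3, and the log2 fold change of 0.12 ± 0.045 did not pass (edgeR BH-adjusted p = 0.18). Ndufa8, an accessory subunit, was the lowest of the nuclear members of the complex. Its CPM was 85.8, 81.0, 75.3 and 74.0 on smooth and 73.5, 71.8, 71.9 and 73.4 on structured PEEK, with all structured libraries below all smooth ones. Its log2 fold change was -0.12 ± 0.050 (edgeR BH-adjusted p = 0.216). Ndufs8, another iron-sulfur subunit and the most abundant nuclear member of the complex at 150 FPKM, differed by 0.036 ± 0.050 on the log2 scale.

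Most other complex I members lay between these. Ndufa2, Ndufa13, Ndufb4, Ndufa9, Ndufb4c, Ndufa12 and Ndufa3 had log2 fold changes from 0.10 to 0.18. Ndufs4, Ndufb7, Ndufs3, Ndufa5, Ndufc2, Ndufa6, Ndufa7, Ndufv1, Ndufa1 and Ndufb8 lay from 0.044 to 0.097. Ndufb6, Ndufs7, Ndufv2, Ndufb5, Ndufb3, Ndufs6, Ndufb9, Ndufa10, Ndufv3, Ndufc1 and Ndufb10 lay from -0.041 to 0.024. Ndufa11 and Ndufs5 were at -0.083 and -0.099. Ndufb2 was at 0.19, with 2.19 FPKM, a mean of 12.3 CPM on smooth PEEK and an exon length of 5628 bases. Ndufa11b and Ndufs6b were not tested, at 0.015 and 0.39 FPKM on average. Ndufb4 and Ndufb4c, Ndufa11 and Ndufa11b, and Ndufs6 and Ndufs6b are near copies whose reads the authors' counting could split, so their values are uncertain.

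Complex II, succinate dehydrogenase, links the citric acid cycle to the chain and has 4 subunits. Sdhd, which encodes one of the membrane anchors, rose. Its CPM was 272.4, 278.2, 265.0 and 266.3 in smooth 1 to 4 and 306.4, 344.4, 291.2 and 319.3 in structured 1 to 4. Every structured library lay above every smooth one, and structured 2 was the highest. The mean went from 270 ± 6.1 to 315 ± 22.5 CPM (SD, n = 4 per surface). On the log2 scale the change was 0.22 ± 0.049 (SE), which edgeR called at a BH-adjusted p of 0.0336.

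The other subunits of complex II did not pass. Sdhb, the iron-sulfur subunit, had a log2 fold change of 0.070 ± 0.047, and Sdha, the flavoprotein that oxidizes succinate, one of 0.027 ± 0.032. Sdhc, the other membrane anchor, had CPM of 124, 126, 125 and 119 on smooth and 126, 123, 123 and 122 on structured PEEK. Its groups overlapped fully at a log2 fold change of 0.0040 ± 0.034. Summed FPKM of the complex was 359 ± 10.3 on smooth and 399 ± 17.2 on structured PEEK without overlap, and Sdhd, the most abundant member at 223 FPKM, is part of that sum. The call for Sdhd held without structured 3 (adjusted p = 0.0233) but was lost with each of the other 7 libraries left out (adjusted p = 0.0539 to 0.0972), where its log2 fold change was 0.18 to 0.24. It was lost too with the trend on GC content and length removed, at 0.16 on the log2 scale (adjusted p = 0.150), with limma on log2 FPKM, without a filter on low counts and without smooth 1 and smooth 4 together.

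In complex III, which passes electrons from ubiquinol to cytochrome c, Uqcrc1 fell. Uqcrc1 encodes core protein 1, a subunit that faces the matrix. Its CPM was 287, 291, 278 and 275 in smooth 1 to 4 and 249, 248, 261 and 253 in structured 1 to 4. Every structured library lay below every smooth one. The mean went from 283 ± 7.3 to 253 ± 6.1 CPM (SD, n = 4 per surface). On the log2 scale the change was -0.16 ± 0.035 (SE), which edgeR called at a BH-adjusted p of 0.0329. The call held without structured 3 (adjusted p = 0.0347) and was lost with each of the other 7 libraries left out (adjusted p = 0.0523 to 0.108). It was also lost with the GC content and length trend removed (-0.14 on the log2 scale, adjusted p = 0.0976), with limma on log2 FPKM, without a filter on low counts and without smooth 1 and smooth 4 together.

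The partner of Uqcrc1, core protein 2, is encoded by Uqcrc2 and did not pass the test. Its CPM was 200, 208, 210 and 218 on smooth and 223, 228, 209 and 227 on structured PEEK. Only structured 3 lay within the smooth range, at a log2 fold change of 0.085 ± 0.041 (edgeR BH-adjusted p = 0.297). The small subunits Uqcr11, Uqcrh, Uqcrb, Uqcr10 and Uqcrq and the Rieske protein Uqcrfs1 had log2 fold changes from 0.069 to 0.15, none past the test. Cyc1, the cytochrome c1 of the complex, was level at -0.0040 ± 0.047. Of the 9 nuclear members, 7 were above 0 and the median was 0.085. It was 0.025 without smooth 3, 0.027 with the GC content and length trend removed and 0.15 without smooth 1 and smooth 4 together. Cycs, which encodes the soluble carrier between complexes III and IV, had a log2 fold change of 0.044 ± 0.053.

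The promoters of the 2 members past the test are shown because Sdhd and Uqcrc1 changed in opposite directions. Each is given 5′ to 3′ on the gene's strand, from 250 bases before to 50 bases after the start in RefSeq (GRCm38.p6). Sdhd lies at chr9:50603800-50604099 on the minus strand and Uqcrc1 at chr9:108936398-108936697 on the plus strand. Capitals mark the letters of 2 motifs, the ETS core CCGGAAG (on the other strand CTTCCGG) in Sdhd and the NRF1 core GCGCATGC (on the other strand GCATGCGC) in Uqcrc1.

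Sdhd: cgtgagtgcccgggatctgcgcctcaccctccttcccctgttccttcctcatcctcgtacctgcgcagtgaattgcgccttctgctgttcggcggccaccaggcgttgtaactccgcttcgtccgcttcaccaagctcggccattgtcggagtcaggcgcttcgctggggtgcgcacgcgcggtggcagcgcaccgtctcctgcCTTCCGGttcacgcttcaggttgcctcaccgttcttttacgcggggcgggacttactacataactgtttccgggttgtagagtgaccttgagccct

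Uqcrc1: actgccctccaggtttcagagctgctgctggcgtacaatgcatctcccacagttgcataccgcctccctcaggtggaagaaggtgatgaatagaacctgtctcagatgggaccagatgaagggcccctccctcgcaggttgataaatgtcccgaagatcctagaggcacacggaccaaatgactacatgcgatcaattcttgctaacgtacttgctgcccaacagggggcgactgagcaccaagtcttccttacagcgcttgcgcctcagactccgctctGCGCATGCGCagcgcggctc

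Sdhd held 1 ETS core, on the reverse strand. Uqcrc1 held the NRF1 core on both strands as overlapping letters that count as 2 matches. NRF1 and the ETS family factor GABP (NRF2) are known regulators of nuclear respiratory genes, and a match of letters is a description, not a bound site.

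Windows were found in RefSeq for 67 of the 87 nuclear members, 72 windows in all. The NRF1 core stood in 15.3% of these windows, against 2.71% of all 32851 windows. The ETS core stood in 23.6% of them, against 8.86% of all windows. The YY1 core AAGATGGC (on the other strand GCCATCTT) stood in 13.9%, against 2.75% of all windows. The windows were not matched for GC content or for expression in these cells. Whether the higher shares are particular to the members was thus not tested. Change between the surfaces is given by motif without a test. The median log2 fold change was 0.044 for the 11 members with the NRF1 core and 0.057 for the 56 without it. With the ETS core it was 0.090 over 17 members and without it 0.049 over 50. With the YY1 core it was 0.062 over 10 members and without it 0.053 over 57.

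Complex IV, cytochrome c oxidase, had 18 nuclear members and 16 tested. None passed the test, 9 were above 0 and the median log2 fold change was 0.0097. The sign of this median changed with the libraries used, from -0.041 without smooth 3 to 0.068 without smooth 1. Leaving out smooth 2 gave 0.042 and leaving out smooth 4 gave -0.0003. Leaving out structured 2, 3 or 4 gave -0.0023, 0.020 and 0.0017. With the GC content and length trend removed it was -0.015, without a filter on low counts -0.0012 and without smooth 1 and smooth 4 together 0.051. Cox4i1, the common isoform of subunit 4 and the most abundant nuclear member at 233 FPKM, had CPM of 394, 404, 364 and 390 on smooth and 364, 383, 395 and 392 on structured PEEK. The groups overlapped throughout, at a log2 fold change of -0.017 ± 0.042. Cox6c had the highest log2 fold change among members above 5 FPKM, 0.12 ± 0.076, and Cox5a, a matrix subunit, the lowest, -0.071 ± 0.042, and neither passed the test. Cox7b, Cox7a2 and Cox6b1 had 0.092 to 0.11, Cox7c, Ndufa4, Cox8a and Cox5b 0.0095 to 0.053, and Cox7a2l and Cox6a1 -0.018 and -0.034. Cox8a varied within smooth PEEK, with CPM of 181, 154, 117 and 120 against 141, 147, 141 and 147 on structured PEEK.

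Several complex IV subunits have a form that is expressed mainly in heart and skeletal muscle or in lung, and these were rare here. Cox6a2, the muscle form of subunit 6a, had CPM of 2.64, 1.34, 1.78 and 2.59 on smooth and 1.01, 0.34, 1.58 and 1.09 on structured PEEK. Smooth 1 and smooth 4 were the highest and structured 2 the lowest, the groups overlapped, and the log2 fold change was -1.06 ± 0.39 (edgeR BH-adjusted p = 0.167). Smooth 1 and smooth 4 were also the libraries with the highest summed skeletal muscle transcripts, at 82.9 and 53.8 CPM. Structured 3, with 1.58 CPM of Cox6a2, had the lowest such sum, 25.7 CPM. The muscle form Cox8b was highest in smooth 3 (0.54 CPM), whose sum of 32.5 CPM was the lowest on smooth PEEK. Cox7a1 was highest in structured 1 (1.07 CPM), whose sum of 37.0 CPM was the highest on structured PEEK. A link to these sums was not tested. The general form Cox6a1 stood at 157 ± 25.9 CPM on smooth and 154 ± 7.0 on structured PEEK (SD, n = 4 per surface).

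Cox8b, the muscle form of subunit 8, had CPM of 0.30, 0.37, 0.54 and 0.33 on smooth PEEK and 0, 0.399, 0 and 0 on structured PEEK. The level that 3 fragments allow is 0.166 to 0.186 CPM, so the structured libraries apart from structured 2 were under that floor. The fitted change did not pass (edgeR BH-adjusted p = 0.425), but passed as lower with voom (0.0446) and without structured 2 (0.0313). Structured 2 was the only structured library above 0, so the fit without it set smooth PEEK against 0 throughout. That call follows from the library left out, and the gene reached the test only because of its smooth libraries. Cox7a1, another muscle form, had 0.450 to 0.679 CPM on smooth and 0.186 to 1.07 on structured PEEK. Cox4i2, known from lung, had 0.382 to 0.791 and 0.109 to 0.711 CPM, and the groups of both genes overlapped. Ndufa4l2 and Cox6c2 were not tested, at 0.075 and 0.45 FPKM, and Cox6c2 is a near copy of Cox6c.

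The promoters of the general form Cox8a and the muscle form Cox8b are shown because these isoforms differed so widely in level, 217 against 0.61 FPKM. Cox8a lies at chr19:7217567-7217866 and Cox8b at chr7:140900397-140900696, both on the minus strand of GRCm38.p6 in RefSeq. Capitals mark the ETS core, found at 2 places in Cox8a. None of the 3 motifs stood in the Cox8b window, which says only that those letters are not there.

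Cox8a: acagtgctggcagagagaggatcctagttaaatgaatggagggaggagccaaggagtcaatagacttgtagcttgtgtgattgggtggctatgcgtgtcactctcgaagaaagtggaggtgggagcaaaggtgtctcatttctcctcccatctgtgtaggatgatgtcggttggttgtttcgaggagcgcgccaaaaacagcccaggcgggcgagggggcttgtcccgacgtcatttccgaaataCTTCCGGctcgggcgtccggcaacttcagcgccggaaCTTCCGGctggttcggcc

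Cox8b: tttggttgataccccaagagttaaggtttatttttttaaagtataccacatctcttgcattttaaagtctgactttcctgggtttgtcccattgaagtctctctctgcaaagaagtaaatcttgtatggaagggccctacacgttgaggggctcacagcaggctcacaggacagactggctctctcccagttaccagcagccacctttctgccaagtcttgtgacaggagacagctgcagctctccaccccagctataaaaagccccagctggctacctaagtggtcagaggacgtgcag

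Complex V, the ATP synthase, had 17 nuclear members, all tested. None passed the test, 15 were above 0 and the median log2 fold change was 0.065. It was 0.038 without smooth 3, 0.039 with the GC content and length trend removed and 0.11 without smooth 1 and smooth 4 together. Atp5l, which encodes subunit g of the membrane part, had CPM of 140, 138, 128 and 147 in smooth 1 to 4 and 152, 158, 153 and 156 in structured 1 to 4. Every structured library lay above every smooth one. Its mean went from 138 ± 7.9 to 155 ± 2.9 CPM (SD, n = 4 per surface). On the log2 scale that is 0.16 ± 0.044 (SE), short of the threshold in edgeR at a BH-adjusted p of 0.0637. It passed with DESeq2 (adjusted p = 0.00629), as did Atp5h, subunit d of the peripheral stalk (0.0361), which stood at 0.16 ± 0.054 in edgeR.

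The catalytic beta subunit gene Atp5b was the steadiest tested member by the ratio of its highest to its lowest library. Its CPM was 1633, 1647, 1596 and 1566 on smooth and 1603, 1637, 1601 and 1602 on structured PEEK. The highest library was 1.05 times the lowest and the log2 fold change was 0.0003 ± 0.028. Atp5a1, for the alpha subunit, had 1166 to 1245 CPM on smooth and 1216 to 1280 on structured PEEK, a log2 fold change of 0.055 ± 0.032 (edgeR BH-adjusted p = 0.405). Atp5j2, Atp5md and Atp5mpl had log2 fold changes of 0.093 to 0.14. Atp5o, Atp5j, Atp5e, Atp5pb, Atp5c1 and Atp5d had 0.037 to 0.072, and Atp5k had -0.045.

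Subunit c, which forms the rotor ring, is made from 3 genes, Atp5g1, Atp5g2 and Atp5g3. Atp5g1 had the lowest fold change of the complex, -0.047 ± 0.11, with CPM of 67.0, 94.0, 79.5 and 81.8 on smooth and 79.5, 62.9, 85.2 and 84.2 on structured PEEK. Of the summed FPKM of the 3 genes, Atp5g1 gave 11.2% ± 1.4 on smooth and 10.4% ± 1.3 on structured PEEK (SD, n = 4 per surface). Atp5g2 and Atp5g3 had log2 fold changes of 0.061 ± 0.063 and 0.084 ± 0.043, and neither passed. Atp5g2 gave 41.8% and 41.8%, and Atp5g3 47.0% and 47.8%. The mix of c subunit transcripts thus differed by less than the spread between libraries. The shares themselves depend on gene length, by which FPKM is divided. In GENCODE M21 the exon length was 4912 bases for Atp5g1, 1675 for Atp5g2 and 2181 for Atp5g3. Their mean CPM on smooth PEEK, without that division, was 80.6, 103 and 150.

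**Figure D3:**
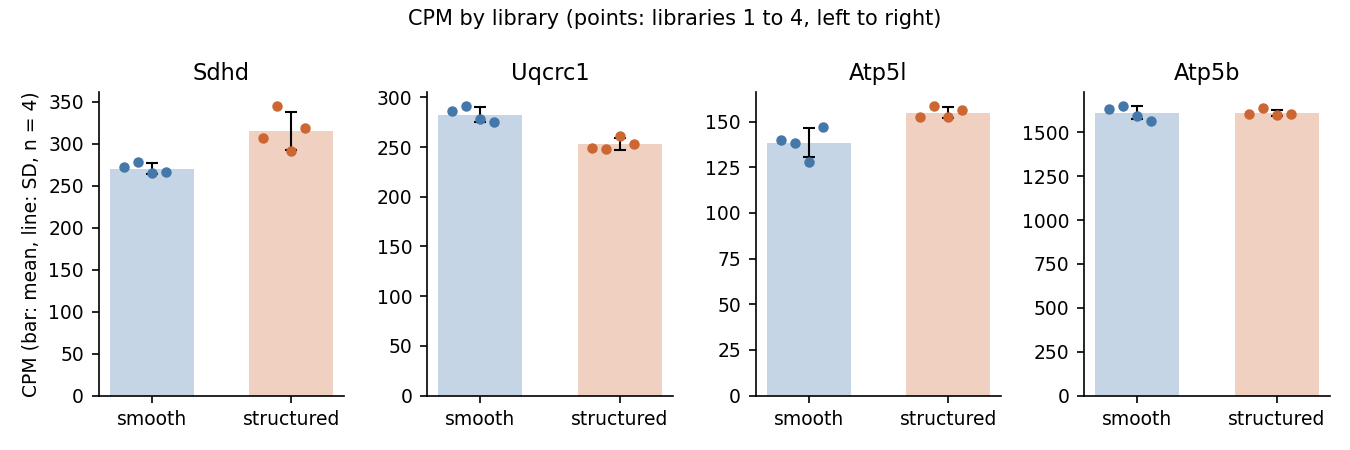
CPM of Sdhd, Uqcrc1, Atp5l and Atp5b on each surface, with each library as a point (1 to 4 from left to right), the mean as a bar and the SD as a line (n = 4 per surface). Structured points lie above smooth ones for Sdhd and Atp5l and below for Uqcrc1, and the points of Atp5b overlap between 1566 and 1647 CPM.

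Of the 13 mitochondrially encoded transcripts, all but mt-Nd3 stood above every nuclear member in FPKM. Together they made up 4.43%, 4.52%, 4.69% and 5.36% of all counts in smooth 1 to 4 and 4.59%, 4.55%, 4.22% and 4.72% in structured 1 to 4. Smooth 4 was the highest and structured 3 the lowest, and the groups overlapped. Their summed FPKM was 45948 ± 3854 on smooth and 43981 ± 2673 on structured PEEK (SD, n = 4 per surface), against 4977 ± 273 and 5162 ± 123 for nuclear members. The ratio of these sums was 8.32, 8.52, 9.60 and 10.6 on smooth and 8.91, 8.29, 7.92 and 8.97 on structured PEEK, also overlapping. Libraries were made from oligo(dT)-selected RNA, so these shares depend on capture by a poly(A) stretch and need not hold for all RNA.

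Among them, mt-Co1, the catalytic subunit of complex IV, was the highest at 10232 FPKM. The genes mt-Atp8, mt-Atp6, mt-Co2, mt-Cytb, mt-Nd1 and mt-Co3 followed at 5055, 5037, 4703, 4282, 4147 and 3476 FPKM. The other complex I genes were lower, with mt-Nd2 at 1951, mt-Nd4 at 1776, mt-Nd5 at 1521, mt-Nd4l at 1267, mt-Nd6 at 1197 and mt-Nd3 at 322 FPKM. Several of these genes share bases, 43 between mt-Atp8 and mt-Atp6, 7 between mt-Nd4 and mt-Nd4l, 1 between mt-Atp6 and mt-Co3, and 14 on opposite strands between mt-Nd5 and mt-Nd6. The strand setting of the counting is not given, so reads there cannot be told apart, nor can reads from nuclear copies of mitochondrial DNA. Over the whole of mt-Nd6, the only mitochondrial member on the minus strand, reads from transcripts of the plus strand may also have been counted.

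No mitochondrially encoded member passed the test in edgeR, limma or DESeq2, and 1 of the 13 had an unadjusted p under 0.05. That gene was mt-Nd4, a proton-pumping subunit of complex I, with CPM of 2506, 2613, 2739 and 3165 on smooth and 2556, 2482, 2308 and 2541 on structured PEEK. Smooth 4 was the highest, structured 1 and structured 4 lay within the smooth range, and the log2 fold change was -0.16 ± 0.063 (edgeR BH-adjusted p = 0.202). The only members above 0 were mt-Nd3 (0.015) and mt-Co3 (0.0059), and the other 11 lay from -0.16 to -0.015. By complex these were mt-Nd1, mt-Nd2, mt-Nd4l, mt-Nd5 and mt-Nd6 from -0.097 to -0.039, mt-Cytb at -0.11, mt-Co1 and mt-Co2 at -0.079 and -0.13, and mt-Atp6 and mt-Atp8 at -0.036 and -0.015.

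Set side by side, most nuclear members lay above 0 and most mitochondrial ones below. Of the 83 nuclear members tested, 65 were above 0 (78.3%) with a median log2 fold change of 0.057. Of the 13 mitochondrial members, 11 were below 0 with a median of -0.079. Over all genes tested, 51.2% were above 0 and the median was 0.0056. These medians come from transcripts of the same libraries and carry no test, and each rested in part on 1 smooth library.

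**Figure D4:**
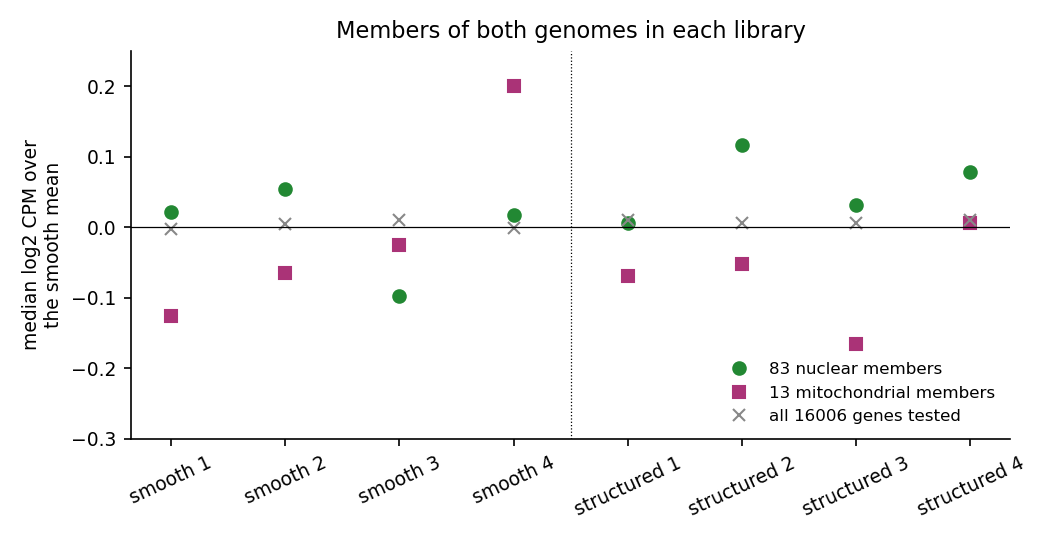
Median over members of log2 CPM relative to the smooth mean, in each library, for 83 nuclear members (circles), 13 mitochondrially encoded members (squares) and all 16006 genes tested (crosses). The nuclear median is lowest in smooth 3 at -0.097 and the mitochondrial one highest in smooth 4 at 0.20, and both overlap between the surfaces.

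Relative to the smooth mean, the nuclear median was 0.021, 0.054, -0.097 and 0.018 in smooth 1 to 4 and 0.0053, 0.12, 0.032 and 0.079 in structured 1 to 4. Smooth 3 stood below every other library, and structured 2 and 4 above, with overlap. The mitochondrial median was -0.13, -0.065, -0.025 and 0.20 on smooth and -0.069, -0.053, -0.16 and 0.0056 on structured PEEK. Smooth 4 stood above every other library, and smooth 1 lay below all structured libraries except structured 3. Without smooth 3 the median change of nuclear members was 0.014, and 62.7% were above 0. Without smooth 4 the median change of mitochondrial members was -0.0091, with 8 of 13 below 0, and without structured 3 it was -0.040.

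**Figure D5:**
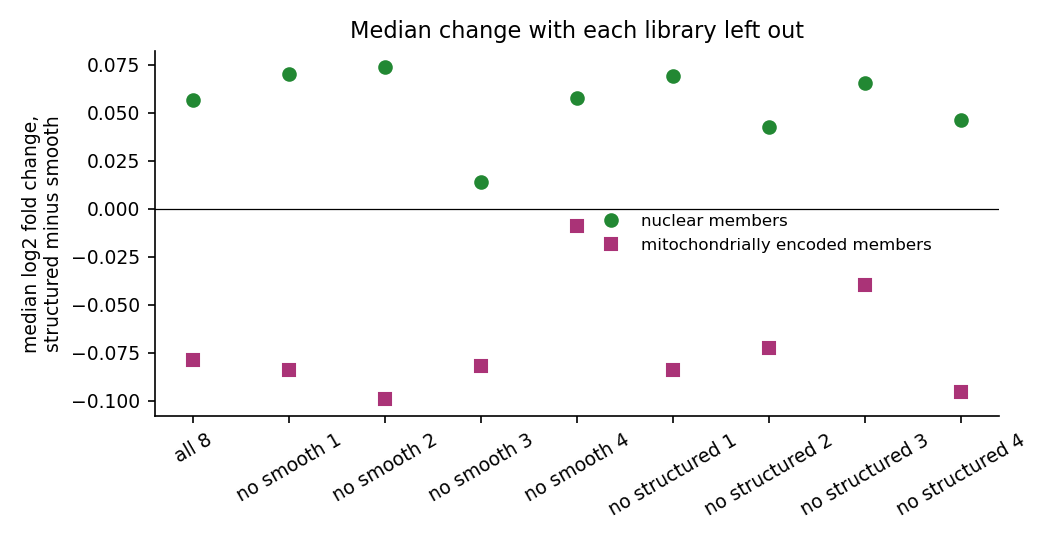
Median log2 fold change, structured minus smooth, of nuclear (circles) and mitochondrially encoded (squares) members with all 8 libraries and with each library left out. The nuclear median stays between 0.014 and 0.074 and the mitochondrial one between -0.099 and -0.0091, nearest to 0 without smooth 3 and without smooth 4.

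Mitochondrial members also differed from the rest in composition, with a median GC content of 37.1% and exon length of 784 bases, against 50.3% and 1587 bases for nuclear members and 49.5% and 3637 bases for all genes tested. With the trend of each library on GC content and length removed, the nuclear median was 0.027 with 67.5% above 0 and the mitochondrial median -0.12 with 11 of 13 below 0. The mitochondrial members at an unadjusted p under 0.05 were then 7, and none passed the adjusted threshold. The share of all genes under 0.05 in that fit was not taken, so this count cannot be weighed. Over all genes, 61 passed as higher and 86 as lower in that fit.

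Genes that serve the chain were described from 6 lists of pathway genes. The share called in each is to be read beside the 3.75% of all genes tested. Of 53 assembly factors tested, 2 rose and 0 fell (3.77%), with a median log2 fold change of 0.057. Uqcc2, a factor for complex III that acts on cytochrome b, rose from 20.8 ± 1.7 to 25.6 ± 1.2 CPM (SD, n = 4 per surface), by 0.30 ± 0.068 on the log2 scale (SE; edgeR BH-adjusted p = 0.0365). Taco1, which is needed to translate mt-Co1, rose from 17.7 ± 1.3 to 21.3 ± 0.61 CPM, by 0.27 ± 0.065 (edgeR BH-adjusted p = 0.0471). Their groups did not overlap. The call for Uqcc2 was lost with each of the 8 libraries left out in turn (adjusted p = 0.056 to 0.126), and among those fits Taco1 kept its call in the one without smooth 1. Under the 14 other alternatives, Uqcc2 lost its call in 6 and Taco1 in 8.

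Among 35 genes of mitochondrial DNA expression, 0 rose and 1 fell (2.86%, against 3.75% of all genes tested), with a median of 0.029. Tbrg4, an RNA-binding protein of the FASTK family, had CPM of 161, 153, 158 and 151 on smooth and 145, 137, 135 and 133 on structured PEEK. All structured libraries lay below all smooth ones, at -0.18 ± 0.039 (edgeR BH-adjusted p = 0.0334). Among 16 tested regulators of respiratory gene transcription, 0 rose and 1 fell (6.25%, a share that rests on 1 gene), with a median of -0.028. Pprc1, a coactivator of NRF1, had CPM of 163, 160, 172 and 159 on smooth and 147, 144, 142 and 133 on structured PEEK. It fell without overlap by 0.21 ± 0.042 on the log2 scale (edgeR BH-adjusted p = 0.0248). Tbrg4 kept its call in 1 of the 8 fits with a library left out, that without structured 1, and Pprc1 in 4, losing it without smooth 2, smooth 3, structured 2 or structured 4. Each also lost its call in 6 of the 14 other alternatives. With the GC content and length trend removed the log2 fold change was -0.12 for Tbrg4 (adjusted p = 0.18) and -0.13 for Pprc1 (adjusted p = 0.168).

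Of the citric acid cycle list 23 genes were tested, 0 rose and 1 fell (4.35%, against 3.75% of all genes tested), with a median of 0.046. The gene that fell, Ogdh, had the smallest adjusted p of the members and pathway genes named here. Ogdh encodes the E1 component of the oxoglutarate dehydrogenase complex, which makes NADH for complex I. Its CPM was 324, 342, 360 and 341 in smooth 1 to 4 and 283, 284, 275 and 271 in structured 1 to 4. Every structured library lay well below every smooth one, and the mean went from 341 ± 14.6 to 278 ± 6.5 CPM (SD, n = 4 per surface). The log2 fold change was -0.30 ± 0.039 (SE; edgeR BH-adjusted p = 0.00689). It passed with each library left out in turn (adjusted p = 0.00321 to 0.0293) and under all 14 other alternatives run, with log2 fold changes from -0.33 to -0.27.

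In the list of electron carriers, quinone synthesis and ADP/ATP exchange, 27 genes were tested, 1 rose and 1 fell, with a median of 0.0067. These calls are 7.41% of the list, against 3.75% of all genes tested, and rest on 2 genes. Slc25a4, an ADP/ATP carrier of the inner membrane, rose from 186 ± 8.8 to 211 ± 6.9 CPM (SD, n = 4 per surface), by 0.18 ± 0.043 on the log2 scale (edgeR BH-adjusted p = 0.0402). Ucp2, an uncoupling protein, had CPM of 681, 782, 779 and 766 on smooth and 643, 607, 683 and 628 on structured PEEK. It fell by 0.23 ± 0.051 on the log2 scale (edgeR BH-adjusted p = 0.0329), with smooth 1 just below structured 3. Of the 8 fits with a library left out, Slc25a4 kept its call in that without smooth 2, and Ucp2 in those without smooth 1 and without structured 3. Each also lost its call in 6 of the 14 other alternatives. Of 25 genes of mitochondrial protein import, 0 passed in edgeR and 9 had an unadjusted p under 0.05 (36%, against 18.7% of all genes tested). The share under 0.05 was 34.8% in the citric acid cycle list, 29.6% in that of electron carriers and 28.6% in that of mitochondrial DNA expression. It was 18.8% among the regulators and 15.1% among the assembly factors. Of the import genes, 23 lay above 0 (92.0%, against 51.2%) and the median was 0.096. The most abundant import gene, the chaperonin gene Hspd1, had a log2 fold change of 0.086 ± 0.036 (edgeR BH-adjusted p = 0.230).

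The deposited table places Sdhd on chromosome 9 from 50596357 to 50603812, and Uqcrc1 on the same chromosome from 108936633 to 108949623. Atp5l is also on chromosome 9, from 44912557 to 44920742, Ndufs1 is on chromosome 1 from 63143596 to 63176822, and Ndufa8 is on chromosome 2 from 36036326 to 36049406. The authors' build is not given in the sources used here, and 84 of the 100 members had identical coordinates in GENCODE M21. Counts cover whole genes, so exons and introns were not told apart.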

How the data were processed

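RNA of RAW264.7 cells was selected with oligo(dT), dUTP-marked and sequenced as read pairs, per the labels' protocols. The submitters' processing notes name cutadapt 1.9 for trimming and HISAT2 2.2.1 for alignment. Which counter, strand setting, annotation and build they used is not given in the sources used here. Expected counts were deposited by the authors, rounded to whole numbers, beside FPKM values, which correct for gene length and depth, per the file headers. Multiples of 4 made up 32.1% of counts between 1 and 40 but 25.3% between 400 and 4000, so a fragment may stand for 4 units and counts divided by 4 were tried.

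Counts were tested with edgeR 4.0.16 under R 4.3.3 (filterByExpr at minimum count 10, TMM, two-sided quasi-likelihood test, Benjamini-Hochberg adjustment at 0.05) over 16006 genes, and 10842 with low counts were left out. The edgeR step was tested on simulated data. CPM is a count divided by the TMM-scaled library size, times 1e+06. Medians of log2 CPM by library used an offset of 0.1. A floor of 3 fragments covers counting error only. Alternatives were other filters and scalings, DESeq2 1.42.0, voom and limma 3.58.1 on log2 FPKM, a replicate block, removal of the GC content and length trend, and each library left out. Leaving out smooth 1 and smooth 4 together was chosen after seeing the data, as the libraries with the most skeletal muscle transcripts.

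The members and all lists (6 of pathway genes, and markers of macrophages, skeletal muscle, hepatocytes and neutrophils) were chosen with earlier results of these data known. Named with values were members past the threshold, the most abundant member and the highest and lowest fold change of each complex above 5 FPKM, mitochondrial members, cytochrome c genes, tissue isoforms, and from each pathway list up to 4 genes past the threshold or else the most abundant. Ndufs1, Uqcrc2, Atp5b, Atp5h, the other Sdh genes and the c subunit genes were added after their values were seen. Promoters came from RefSeq (GRCm38.p6). Figures were drawn with matplotlib 3.10.9. The values of 1 member are not reported here, though counts and medians include it.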

Additional observations from a re-analysis of the deposited data

Results flagged for a closer look

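In 11 of 150 groups of 4 libraries, 1 library stood apart by Dixon's criterion on its gap to the others, and chance flags about 1 in 20 such groups. Among mitochondrial members, mt-Co1 was low in structured 3, at 15410 CPM in a group reaching 16810, and mt-Nd5 was high in structured 4, at 3081 CPM against a lowest of 2851. Summed FPKM of the mitochondrial members was high in smooth 4, at 51700. The median of the nuclear complex IV members was low in smooth 3, at -0.072 on the log2 scale relative to the smooth mean. Atp5g1 gave a low share of the c subunit FPKM in structured 2, at 8.50%. Cox8b was at 0.399 CPM in structured 2 and at 0 in the other structured libraries, and Ucp2 was low in smooth 1, at 681 CPM.

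Marker sums also held libraries that stood apart. Within the smooth group, macrophage markers were lowest in smooth 1, at 6124 CPM, and hepatocyte transcripts highest there, at 423 CPM. Skeletal muscle transcripts were highest of the structured group in structured 1, at 37.0 CPM, and neutrophil transcripts lowest of that group there, at 71.3 CPM.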

How the results depend on the processing

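Over 22 alternatives, no value of a gene named by the rule reversed, nor did the medians over all nuclear or all mitochondrial members. For a gene, a change of sign counted only where a value was past the threshold or both values exceeded their SE. Medians by complex were not among these results, and that of complex IV changed sign, as given above. Of 1030 values of the 47 genes named by the rule, 922 kept their side of the threshold, 104 lost it and 4 gained it (Atp5l with DESeq2 and with counts divided by 4, Cox8b with voom and without structured 2). The gain of Cox8b without structured 2 follows from leaving out its only structured library above 0. Atp5h, named outside the rule, passed with DESeq2. Only genes called in the main fit could lose a call, and the 922 include all values of genes called in no fit. Of the genes called in the main fit, Ogdh kept its call under all 22 alternatives. The others kept theirs in 7 (Taco1) to 12 (Pprc1) of the 22. The members called, 1 higher and 1 lower, became 0 and 0 without a filter on low counts, with limma on log2(FPKM + 0.5), log2(FPKM + 0.1) or log2(FPKM + 1), with the GC content and length trend removed and without smooth 1 and smooth 4 together. They were 3 higher with DESeq2, 2 higher with counts divided by 4 and 2 lower with voom. With each library left out they were 0 to 1 higher and 0 to 1 lower, from fewer samples. Over all genes, 161 higher and 440 lower calls became 47 and 142 without a filter, 553 and 880 with DESeq2, 67 and 124, 89 and 153, or 65 and 122 with limma at an offset of 0.5, 0.1 or 1, 61 and 86 with the GC content and length trend removed, and 25 and 27 without smooth 1 and smooth 4 together. With each library left out they were 21 to 170 higher and 67 to 427 lower. The cause was not tested.

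The median of nuclear members was 0.014 to 0.084 and that of mitochondrial members -0.12 to -0.0027 over all alternatives. Same-numbered libraries did not stand out as pairs. Their deviations correlated at -0.16 to 0.076, and those of other pairs at -0.211 to 0.197. These values cannot show whether a number marks a shared culture or day, which the labels do not say. With the number as a replicate block, 125 genes were higher and 374 lower, 1 member was higher and 0 lower, and Uqcrc1 had an edgeR adjusted p of 0.0631. Of the other genes called in the text, Taco1 also lost its call under the block. Genes under the floor, such as Cox8b on structured PEEK, are limited by depth.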
